A study of Dichomitus squalens with 16 samples.

Results

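DICSQDRAFT_181599 is a gene of the white-rot fungus Dichomitus squalens whose deposited description is alcohol oxidase. It is 1 gene, picked out by its protein number from the 11410 genes that had reads in at least 1 library. It was chosen because earlier results of these data had shown a very high level that was far lower in some cultures, so its levels and ratios are given here as a description and with no test. Strain LYAD-421 SS1 was grown in liquid low-nitrogen medium with asparagine, succinate and glycerol, and every culture also held plant material: sawdust of spruce or of aspen, or powder of wheat bran or of cotton seed hulls. Mycelium was collected on day 9 and on day 16, which gives 8 groups of 2 RNA-seq libraries, 16 libraries in all. All groups therefore shared the glycerol and the medium, and no group without plant material was analysed here. Whether the 2 replicates of a group came from separate flasks is not stated in the labels, and each SD and p then measures only the spread between these libraries, which may be technical.

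Alcohol oxidases are flavoenzymes of the glucose-methanol-choline (GMC) superfamily that oxidise methanol and other short primary alcohols to aldehydes, passing the electrons to oxygen and so making hydrogen peroxide. In methylotrophic yeasts the enzyme sits in peroxisomes, and in wood-decaying basidiomycetes it has also been found outside the cell. Methanol can be set free from the methoxyl groups of lignin and from the methyl esters of pectin, and the hydrogen peroxide can be used by the secreted peroxidases that attack lignin. The formaldehyde made from methanol is carried on by glutathione-dependent formaldehyde dehydrogenase (class III alcohol dehydrogenase), S-formylglutathione hydrolase and formate dehydrogenase to carbon dioxide. The best KEGG hit listed for DICSQDRAFT_181599 is choline dehydrogenase, another member of the GMC superfamily, so the files place it in that superfamily but do not settle its substrate.

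Levels are given as deposited RPKM, that is the uniquely placed reads scaled to the length of the gene model and to the library total, and as the percent of a library's reads. Protein 181599's gene model is 2199 bp long, and the deposited coverage was 99.95% of that length in every library. The libraries held 8448654 ± 242095 uniquely placed reads (mean ± SD, n = 16). Replicates correlated across genes with a Pearson r of 0.986 to 0.992 on the log2(reads + 1) scale, and genes are not independent replicates. The spread between replicates, as chi-square per degree of freedom, was widest in spruce on day 9 (28.1) and aspen on day 9 (30.7), against 1.69 to 11.9 in the other 6 groups. In bulk RNA, a lower share of active hyphae and less of the transcript per hypha cannot be told apart.

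On day 9 the level of DICSQDRAFT_181599 separated wood from non-woody material. Spruce cultures had 1078 and 1161 RPKM in replicates 1 and 2, a mean of 1119 ± 58.1 (SD, n = 2). Aspen cultures had 545 and 240 RPKM, a mean of 392 ± 216 (SD, n = 2). All 4 wood libraries were low, and the aspen pair lay below the spruce pair. Wheat bran cultures had 10490 and 10643 RPKM on day 9, a mean of 10566 ± 107.8 (SD, n = 2). Cotton seed hull cultures had 11007 and 10881 RPKM, a mean of 10944 ± 88.5 (SD, n = 2). Every non-woody library of day 9 was therefore far above every wood library of that day.

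On day 16 the gap in RPKM had narrowed on spruce and closed on aspen. Spruce cultures then had 7996 and 7656 RPKM, a mean of 7826 ± 241 (SD, n = 2). Aspen cultures had 12205 and 10117 RPKM, a mean of 11161 ± 1476 (SD, n = 2). These wood libraries now stood beside the non-woody ones, with spruce below and aspen among them. Wheat bran cultures had 9978 and 10141 RPKM, a mean of 10060 ± 115 (SD, n = 2). Cotton seed hull cultures had 11634 and 12003 RPKM, a mean of 11818 ± 261 (SD, n = 2). Over all 16 libraries the RPKM ran from 240 to 12205, a range of 50.9-fold. The 12 libraries other than day 9 wood spanned 1.59-fold, and the lowest of them was 6.60-fold above the highest of the 4 day 9 wood libraries.

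**Figure D1:**
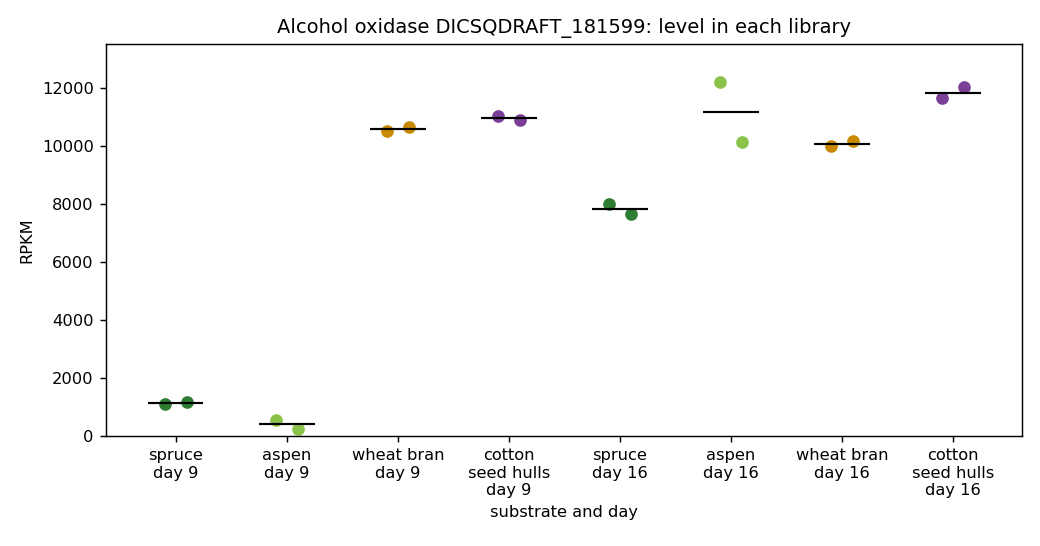
RPKM of DICSQDRAFT_181599 (vertical axis) in each of the 16 libraries (points), grouped by substrate and day, with a line at the mean of the 2 libraries of a group. The 4 day 9 wood libraries lie at or below 1161 RPKM and the other 12 at or above 7656 RPKM.

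In the order of the group mean RPKM, cotton seed hulls on day 16 came first, followed by aspen on day 16, cotton seed hulls on day 9, wheat bran on day 9, wheat bran on day 16, spruce on day 16, spruce on day 9 and aspen on day 9. The libraries of aspen on day 16 overlapped those of cotton seed hulls and of wheat bran on both days. Aspen on day 16 could therefore not be placed against any of these groups. The cotton seed hull libraries of day 16 lay above those of day 9, and the other neighbours in the order did not overlap either, although each held only 2 libraries and the steps between cotton seed hulls on day 9, wheat bran on day 9 and wheat bran on day 16 were 1.04-fold and 1.05-fold. The order also rests on the scaling. When RPKM was rescaled by TMM, cotton seed hulls led on both days, with 16616 ± 60.1 on day 16 and 12924 ± 28.0 on day 9 (SD, n = 2). TMM scales libraries on the premise that most genes do not differ between them, which was not tested here. With TMM, the mean of aspen on day 16 stood in the fifth place at 9818 ± 1208, below the means of wheat bran on both days. The day 9 wood groups were last under this scaling too, at 936 ± 53.2 for spruce and 376 ± 192 for aspen.

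**Figure D2:**
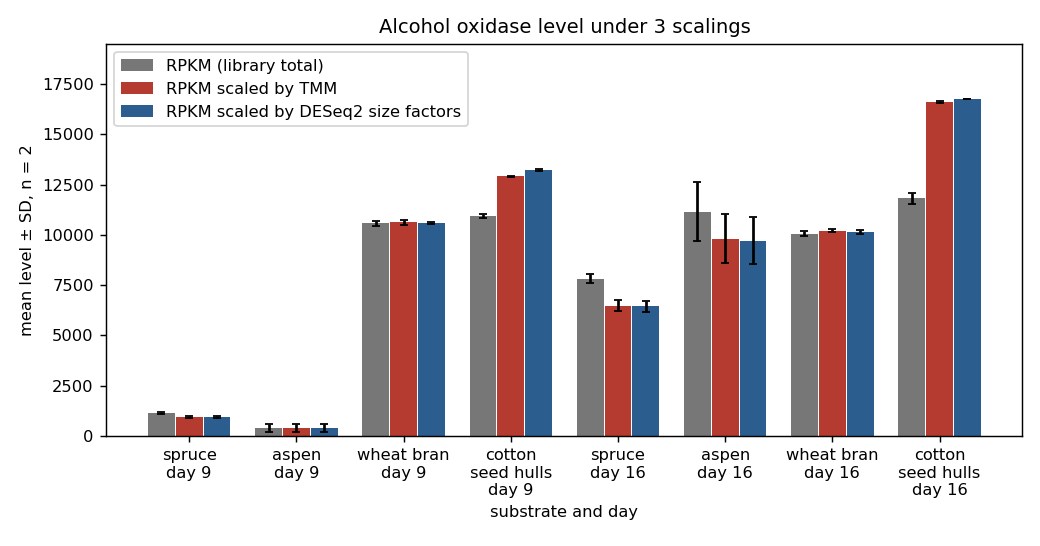
Mean level of DICSQDRAFT_181599 per group (bars) with the SD of 2 libraries (error bars), as deposited RPKM and after rescaling by TMM or by DESeq2 size factors. The cotton seed hull bars are taller after rescaling (16616 by TMM against 11818 as deposited on day 16), and the day 9 wood bars are the lowest under all 3.

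As a share of the library, the transcript took 2.32% ± 0.0237 of reads with bran and 2.41% ± 0.0195 with hulls on day 9 (SD, n = 2). On the same day it took 0.246% ± 0.0128 on spruce and 0.0863% ± 0.0475 on aspen (SD, n = 2). On day 16 the shares were 1.72% ± 0.0530 with spruce, 2.45% ± 0.325 with aspen, 2.21% ± 0.0253 with bran and 2.60% ± 0.0574 with hulls (SD, n = 2). The highest share of reads therefore belonged to an aspen library of day 16, and the lowest to an aspen library of day 9. That highest share was 2.68% (95% Clopper-Pearson interval 2.67 to 2.69, from 228202 reads). The lowest was 0.0527% (interval 0.0511 to 0.0543, from 4459 reads). Intervals cover counting error only, and they are far narrower than the difference between the aspen replicates.

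The name of top transcript holds for read counts and not for RPKM. By reads, DICSQDRAFT_181599 was the first gene in 12 libraries, which are all those other than day 9 wood. In the day 9 wood libraries it ranked 33 and 25 on spruce and 100 and 328 on aspen. By RPKM, which divides by length, it was the first gene in 0 libraries. Its RPKM rank was 2 in both cotton seed hull libraries of day 9, and 3 and 6 on wheat bran on that day. On day 16 its RPKM ranks were 2 and 4 on spruce, 2 and 2 on aspen, 5 and 5 on wheat bran, and 7 and 4 on cotton seed hulls. On day 9 wood its RPKM ranks were 80 and 76 on spruce and 194 and 536 on aspen. Averaged over the 16 libraries it had the highest share of reads of any gene, 1.76%, ahead of the undescribed gene DICSQDRAFT_75389 at 0.963% and the catalase DICSQDRAFT_82531 at 0.856%. Its mean RPKM of 7986 was in the sixth place.

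**Figure D3:**
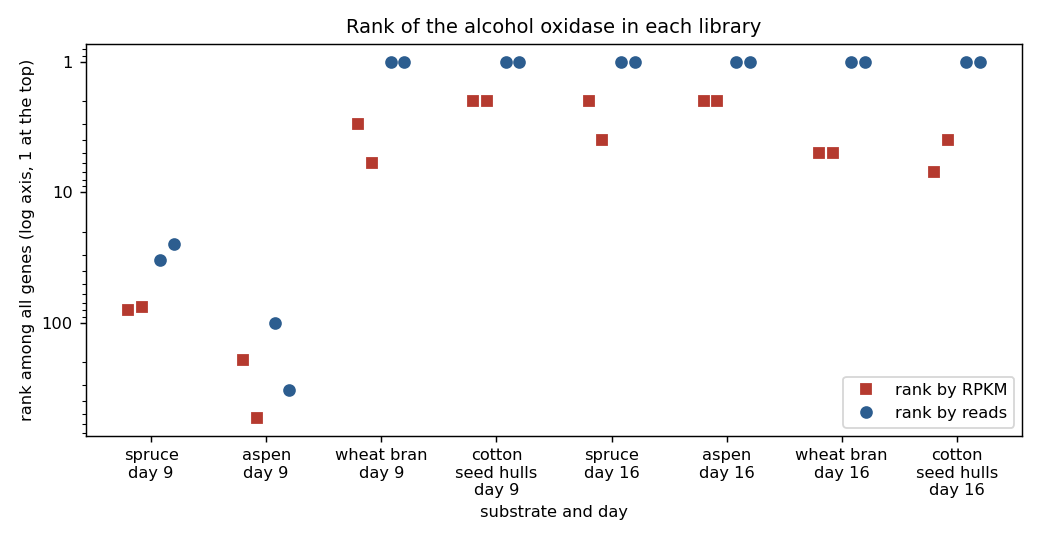
Rank of DICSQDRAFT_181599 among all genes in each library (vertical log axis, 1 at the top), by RPKM (squares) and by reads (circles). By reads it is at 1 in the 12 libraries other than day 9 wood, and by RPKM it lies between 2 and 7 in them.

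The genes above it by RPKM had short models. In the 10 libraries in which it was among the first 5 by RPKM, 6 genes stood above it at least once. Dicsq1-73518 (168 bp), Dicsq1-73523 (201 bp) and Dicsq1-73526 (192 bp) are partial models with no entry in the reference list of locus tags. Replicates could differ widely in them: Dicsq1-73523 had 33595 and 13131 RPKM in the 2 cotton seed hull libraries of day 16, from 54657 and 22533 reads. DICSQDRAFT_93145 is a partial hypothetical model of 461 bp that led both aspen libraries of day 16 at 12439 and 13069 RPKM. The small heat shock protein DICSQDRAFT_109568, a chaperone of 468 bp, reached 18485 RPKM in replicate 1 of wheat bran on day 9. The hypothetical protein DICSQDRAFT_151452 (1201 bp) led both cotton seed hull libraries of day 9 at 13942 and 14784 RPKM.

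The wood to non-woody ratio of DICSQDRAFT_181599 on day 9 was -4.02 ± 0.42 on the log2 scale of RPKM (SD from the 2 replicates of each group), so wood was 16.2-fold lower. On day 16 the same log2 ratio was -0.22 ± 0.10, or 1.17-fold, and the wood and non-woody libraries overlapped. The day 16 ratio depends on the scaling: it was -0.71 with TMM and -0.72 with DESeq2 size factors, against -4.30 and -4.33 for day 9. Direction did not change under either scaling. Wood was thus lower on both days in the group means, with the day 16 difference much the smaller of the pair.

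Within the woods, spruce was above aspen on day 9 by a log2 ratio of 1.51 ± 0.84, or 2.85-fold, and below it on day 16 by -0.51 ± 0.20, or 1.43-fold. The groups did not overlap on either day. The day 9 value rests on an aspen pair that differed 2.28-fold, a gap matched or passed by 22 of the 1652 genes with at least 1000 reads in both of those libraries (1.33%). Without aspen replicate 1 the day 9 log2 ratio was 2.22, and without aspen replicate 2 it was 1.04. Between the non-woody materials, wheat bran lay below cotton seed hulls by a log2 ratio of -0.05 ± 0.02 on day 9 and -0.23 ± 0.04 on day 16. With TMM these were -0.28 and -0.70.

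From day 9 to day 16 the RPKM on spruce was 6.99-fold higher, a log2 ratio of 2.81 ± 0.09. On aspen it was 28.4-fold higher, a log2 ratio of 4.83 ± 0.86, which became 5.54 without replicate 1 of aspen on day 9 and 4.36 without replicate 2. Every day 16 wood library was above every day 9 wood library. On wheat bran the log2 ratio of day 16 to day 9 was -0.07 ± 0.02, and on cotton seed hulls it was 0.11 ± 0.03. The cotton seed hull value was 0.36 with TMM, whereas the wheat bran value of -0.06 hardly moved. The day ratio of RPKM was thus large on both woods and small on both non-woody materials, at 1.05-fold lower on bran and 1.08-fold higher on hulls.

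Among the genes of its own name, DICSQDRAFT_181599 stood far above the rest. Of the 17 other genes described as alcohol oxidase or alcohol oxidase-like, with the 18 models 1689 to 3087 bp long, none passed 538 RPKM in any library. The median of their mean RPKM was 18.5. The RPKM of DICSQDRAFT_181599 over that of the next alcohol oxidase was lowest in replicate 2 of aspen on day 9, at 1.14-fold, and reached 64.9-fold. It took 93.3% to 97.0% of all alcohol oxidase reads in the 12 libraries other than day 9 wood. On day 9 it took 66.6% and 70.8% on spruce and 42.4% and 27.0% on aspen. Most alcohol oxidase reads in the aspen libraries of day 9 therefore came from other genes of the name.

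**Figure D4:**
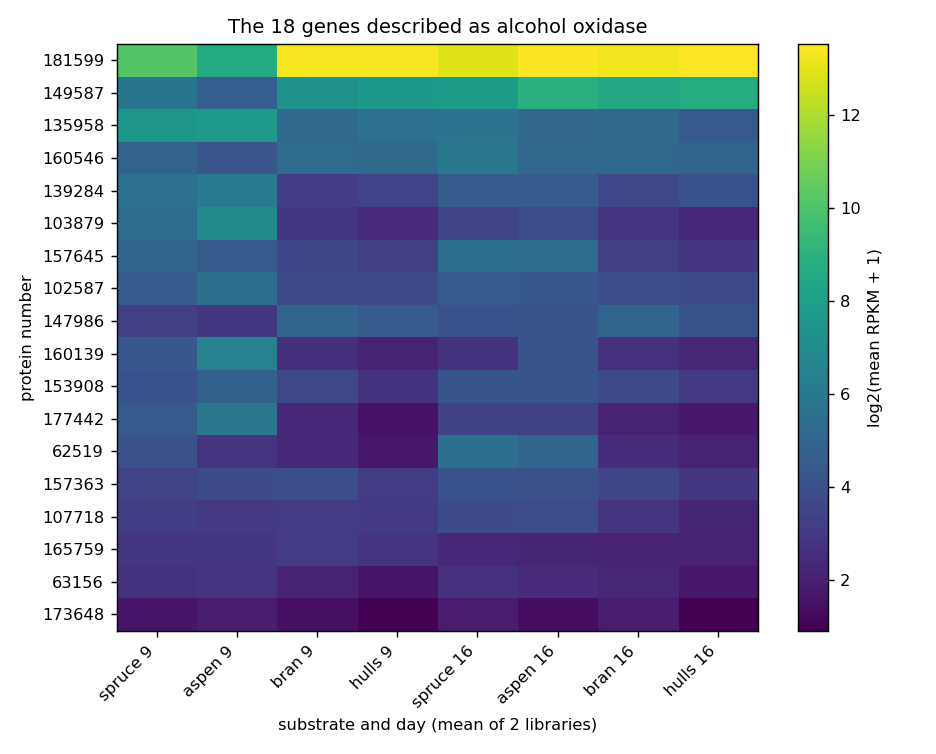
Mean level of the 18 alcohol oxidase genes (rows, by protein number) in the 8 groups (columns, 2 libraries each), coloured by log2(mean RPKM + 1). The top row, DICSQDRAFT_181599, is the brightest in every column and dims in the day 9 wood columns, where DICSQDRAFT_135958 is at its own highest.

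The second alcohol oxidase by mean RPKM over the 16 libraries was DICSQDRAFT_149587 (alcohol oxidase-like), although on day 9 wood it lay below DICSQDRAFT_135958. It too was lowest on day 9 wood, with aspen below spruce, but the order of its other groups differed from that of DICSQDRAFT_181599. Its mean RPKM on day 9 was 54.3 ± 15.1 with spruce, 24.5 ± 11.2 with aspen, 163 ± 1.46 with bran and 196 ± 12.5 with hulls (SD, n = 2). On day 16 it was 219 ± 6.39, 476 ± 87.0, 366 ± 9.05 and 425 ± 2.98 in the same order (SD, n = 2). By edgeR (quasi-likelihood F-test, p values Benjamini-Hochberg adjusted over 10584 genes), it was lower on wood on day 9 (log2 fold change -2.57 ± 0.18 SE, adjusted p = 2.24e-07). It rose from day 9 to day 16 on all 4 substrates, most on aspen (4.15 ± 0.27, adjusted p = 2.30e-07) and least on wheat bran (1.18 ± 0.24, adjusted p = 0.00653). Its lower level on wood on day 16 (-0.77 ± 0.17, adjusted p = 0.00225) became -0.29 and missed the threshold of 0.05 when libraries were scaled by size alone.

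The alcohol oxidase DICSQDRAFT_135958 had the opposite pattern. It had 212 and 177 RPKM on spruce and 208 and 211 RPKM on aspen on day 9, and 21.2 to 58.6 RPKM in the other 12 libraries. These 4 day 9 wood libraries did not overlap the rest. By edgeR it was higher on wood on day 9 (log2 fold change 1.95 ± 0.10 SE, adjusted p = 4.76e-11) and fell from day 9 to day 16 on spruce (-1.94 ± 0.14) and aspen (-2.82 ± 0.14).

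Over the 17 other alcohol oxidases, 11 were higher and 4 lower on wood on day 9, where 71.6% of all 10584 genes tested were called, 37.4% higher and 34.1% lower. Their median log2 fold change was 1.03 against 0.03 over all genes. The 4 lower ones were DICSQDRAFT_149587, DICSQDRAFT_147986 (-2.03 ± 0.10), DICSQDRAFT_160546 (-1.01 ± 0.12) and DICSQDRAFT_165759 (-0.33 ± 0.12). The largest positive changes were in genes that are low elsewhere, such as DICSQDRAFT_177442 (3.40 ± 0.17), DICSQDRAFT_103879 (3.29 ± 0.38) and DICSQDRAFT_160139 (3.07 ± 0.16). On day 16, 8 of the 17 were higher and 2 lower, where 59.7% of all genes were called, 29.7% higher and 30.0% lower, and scaling by library size alone moved this to 13 and 1.

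Genes that could release methanol from pectin were lower on wood on day 9, as DICSQDRAFT_181599 was, but not as a list on day 16. Release of methanol from lignin had no list here, and whether methanol is a substrate of DICSQDRAFT_181599 was not tested. The files list 3 genes with a KEGG hit to pectinesterase, the enzyme that cuts methyl esters from pectin. They are named from that hit alone, since their descriptions call them pectin lyase-like or hypothetical. All 3 were lower on wood on day 9 by edgeR, where 71.6% of all genes were called and 34.1% were lower. Their median log2 fold change was -3.56. They were higher on day 16 than on day 9 on both spruce (median 3.25) and aspen (median 3.33). For the day effect on spruce, 50.6% of all genes were called and 23.6% were higher on day 16. On aspen these shares were 63.6% and 31.5%. On day 16, 2 of the 3 were higher and 1 lower on wood (median 0.72), where 29.7% and 30.0% of all genes were. On that day 2 were higher on spruce than on aspen (median 0.84), where 23.5% of all genes were called. The mean RPKM of DICSQDRAFT_181599 was instead lower on wood and lower on spruce than on aspen.

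DICSQDRAFT_176670, one of these pectinesterase hits, had 9.21 and 8.45 RPKM on spruce and 4.88 and 3.71 RPKM on aspen on day 9. On day 16 it had 102 and 128 RPKM on spruce and 59.5 and 61.0 RPKM on aspen. The day 16 wood libraries were all above the day 9 ones (log2 fold change 3.68 ± 0.15 SE, adjusted p = 8.44e-12 on spruce and 3.67 ± 0.17, adjusted p = 1.74e-11 on aspen, edgeR with Benjamini-Hochberg adjustment). On wheat bran, where DICSQDRAFT_181599 hardly differed between days, all 3 pectinesterase hits fell, against a background of 17.3% of genes called and 8.16% lower on day 16. DICSQDRAFT_176670 changed there by -1.31 ± 0.13 and Dicsq1-142507 by -1.58 ± 0.12.

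Most genes of the formaldehyde and formate steps were also lower on wood on day 9. Of the 5 genes, 4 were lower and 1 higher by edgeR, where 34.1% of all genes were lower and 37.4% higher. Their median log2 fold change was -1.75. The higher one, DICSQDRAFT_142470, is the only member listed for S-formylglutathione hydrolase, from its KEGG hit alone, and is named here after its values were seen. It had 31.4 to 50.5 RPKM in the 4 day 9 wood libraries and 15.4 to 30.9 RPKM in the other 12. DICSQDRAFT_51840, a NAD-dependent formate dehydrogenase, which oxidises formate to carbon dioxide, was the most abundant. It had 2056 and 2333 RPKM on spruce, 1178 and 955 RPKM on aspen, 5785 and 6052 RPKM with bran, and 3621 and 3407 RPKM with hulls on day 9. The wood libraries were all below the non-woody ones (log2 fold change -1.85 ± 0.08 SE, adjusted p = 1.60e-12, edgeR with Benjamini-Hochberg adjustment).

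On day 16 this formate dehydrogenase stood at 4120 ± 28.1 RPKM with spruce, 4072 ± 394 with aspen, 2412 ± 21.1 with bran and 2290 ± 5.98 with hulls (SD, n = 2). It had risen on spruce (0.89 ± 0.11, adjusted p = 3.91e-06) and aspen (1.80 ± 0.11, adjusted p = 7.15e-10) and fallen on wheat bran (-1.28 ± 0.11, adjusted p = 7.01e-07) and cotton seed hulls (-0.37 ± 0.11, adjusted p = 0.0185) by edgeR. For the last, the background was 28.4% of genes called. Its day effect on wood exceeded that on non-woody material by 2.17 ± 0.11 (edgeR interaction, adjusted p = 1.29e-10), a term by which 52.8% of all genes were called. It was thus higher on wood than on non-woody material on day 16 (0.32 ± 0.08, adjusted p = 0.00200), the reverse of day 9, whereas DICSQDRAFT_181599 was not higher there.

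The class III alcohol dehydrogenase DICSQDRAFT_135122, which takes formaldehyde as its glutathione adduct, was lower on wood on day 9 by -1.75 ± 0.09 and on day 16 by -0.58 ± 0.08 (adjusted p = 9.55e-12 and 1.46e-05, edgeR). It rose on spruce (0.82 ± 0.12) and aspen (0.37 ± 0.12) and fell on wheat bran (adjusted p = 1.95e-05). The formate dehydrogenase DICSQDRAFT_88541 was lower on wood on day 9 (-1.50 ± 0.23, adjusted p = 0.000258, edgeR), but on aspen it fell between the days (-0.90 ± 0.32). It thus did not move with DICSQDRAFT_181599 on aspen. Of the 5 genes of these steps, 2 were higher and 3 lower on day 16 than on day 9 on aspen (median -0.86). There 63.6% of all genes were called and 31.5% were higher. On spruce 2 were higher and 0 lower (median 0.62), where 50.6% were called and 23.6% were higher. On wood on day 16, 1 was higher and 2 were lower (median -0.11), where 29.7% and 30.0% of all genes were.

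Relative to DICSQDRAFT_181599, genes of these later steps and a catalase stood higher on day 9 wood. DICSQDRAFT_181599 was chosen with its low level there known, so a raised ratio is partly built in, and it was not tested. The RPKM of the formate dehydrogenase DICSQDRAFT_51840 was 1.96 ± 0.0737 times that of DICSQDRAFT_181599 on spruce and 3.07 ± 1.29 times on aspen (SD, n = 2). In the other 6 groups this ratio of RPKM lay between 0.194 and 0.560. The catalase DICSQDRAFT_82531 behaved likewise, with a ratio of 1.09 ± 0.0279 on spruce and 2.66 ± 1.02 on aspen on day 9 and 0.145 to 0.308 elsewhere. Only on day 9 wood were the formate dehydrogenase and the catalase above the alcohol oxidase per length of transcript. The class III alcohol dehydrogenase DICSQDRAFT_135122 had lower ratios, 0.292 ± 0.0348 on spruce and 0.891 ± 0.396 on aspen on day 9 (SD, n = 2). Elsewhere its ratio was 0.0389 to 0.0934.

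**Figure D5:**
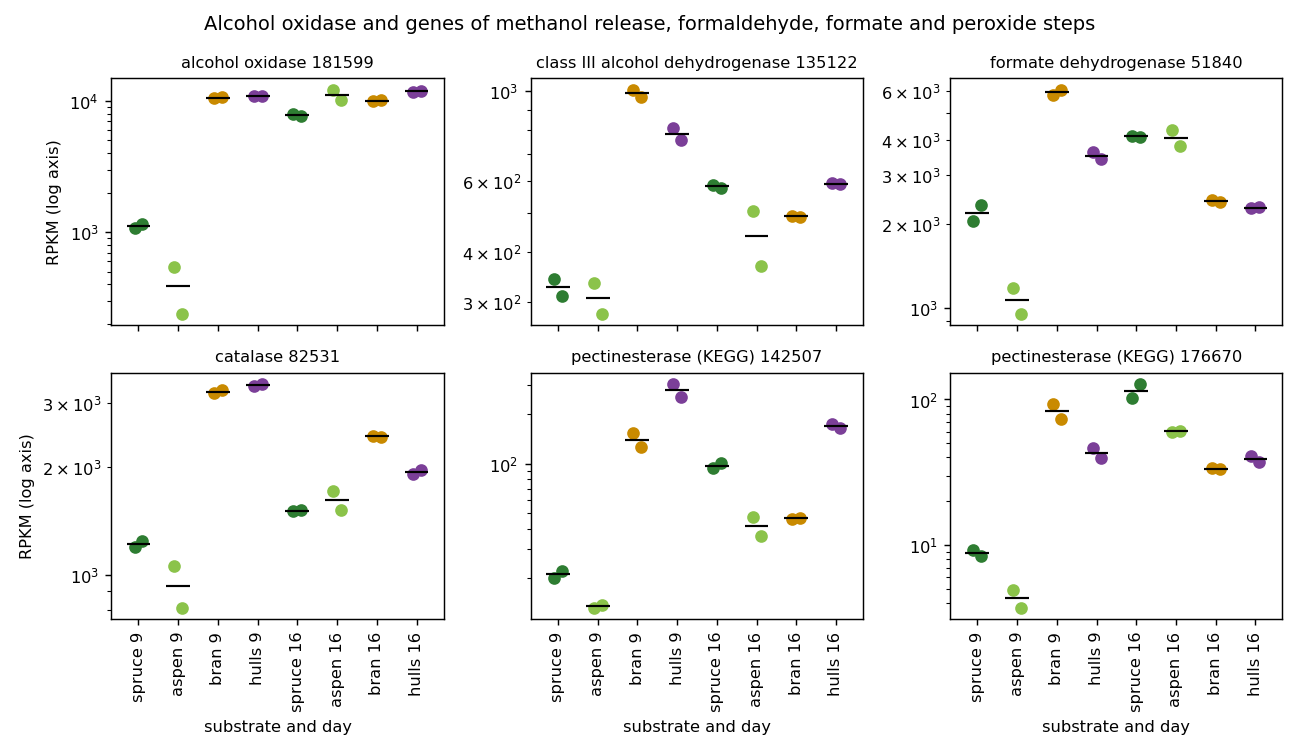
RPKM (vertical log axes, each panel with its own range) of DICSQDRAFT_181599, of 2 genes of the formaldehyde and formate steps, of a catalase and of 2 pectinesterase hits in each library (points), with a line at the mean of the 2 libraries. All 6 genes are lower on day 9 wood than on day 9 non-woody material, and the range is widest for DICSQDRAFT_181599 (240 to 12205 RPKM). The panels are chosen examples and do not stand for their lists. DICSQDRAFT_142470 of the formaldehyde and formate steps, not shown, was higher on day 9 wood, as were 6 of the 9 genes listed with the catalase.

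Among the genes listed for removal of peroxide or superoxide, the catalase DICSQDRAFT_82531, which splits hydrogen peroxide, went with the alcohol oxidase on day 9. Its mean RPKM was 1220 ± 32.1 on spruce and 935 ± 175 on aspen against 3237 ± 41.2 with bran and 3374 ± 40.5 with hulls (SD, n = 2). By edgeR it was lower on wood on day 9 (-1.91 ± 0.08, adjusted p = 2.34e-12) and on day 16 (-0.96 ± 0.08, adjusted p = 3.10e-08). It rose on aspen (0.65 ± 0.12, adjusted p = 0.000113). Its day effect on spruce (0.29 ± 0.12, adjusted p = 0.0453) lost its call under several alternatives. The list also holds superoxide dismutases, which make hydrogen peroxide from superoxide, so it is not a list of peroxide removal alone. As a whole it did not follow: 6 of 9 genes were higher and 2 lower on wood on day 9, with a median of 0.77. Over all genes, 37.4% were higher and 34.1% lower. The manganese superoxide dismutase DICSQDRAFT_70280 (0.88 ± 0.09) and the peroxiredoxin DICSQDRAFT_56656 (0.48 ± 0.11) were among the higher members of the list.

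The secreted heme peroxidases that use hydrogen peroxide on lignin were split, with 4 of 13 higher and 4 lower on wood on day 9 and a median of 0.15. Over all genes, 37.4% were higher and 34.1% lower. The dye-decolorizing peroxidase DICSQDRAFT_150405 had 11369 and 7427 RPKM on spruce and 8092 and 6009 RPKM on aspen on day 9. It had 122.2 to 940 RPKM in the 4 non-woody libraries of that day, so the groups did not overlap (log2 fold change 4.30 ± 0.13 SE, adjusted p = 2.69e-14, edgeR). This peroxidase was thus high on day 9 wood, where DICSQDRAFT_181599 was low. The manganese peroxidase DICSQDRAFT_59877 was higher on day 9 wood as well (3.79 ± 0.19), while the manganese peroxidase DICSQDRAFT_141471 was lower (-4.76 ± 0.18).

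Other genes of families that hold peroxide-making oxidases did not share one direction. The GMC list includes a cellobiose dehydrogenase and models placed by a KEGG hit alone, so not every member need make peroxide. On wood on day 9, 37.4% of all genes were higher and 34.1% lower. Of 20 other GMC oxidoreductases, 10 were higher and 3 lower there (median 0.23). This split was 13 and 3 with library size alone, and 8 and 5 with DESeq2. Of 9 copper radical oxidases, 3 were higher and 4 lower (median -0.24, and 0.03 with library size alone). This list includes genes described as galactose oxidase, whose KEGG hit differs from that of its other members, and their function was not tested. The glyoxal oxidase DICSQDRAFT_167685, which makes peroxide from small aldehydes, was at 1.70 to 2.77 RPKM in the 4 day 9 wood libraries and at 377 to 1176 RPKM in the non-woody ones. Unlike DICSQDRAFT_181599, it was still far lower on wood on day 16 (log2 fold change -6.47 ± 0.16 SE, adjusted p = 1.72e-13, edgeR).

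The genes described as transketolase or dihydroxyacetone kinase, and those that build peroxisomes, did not track the alcohol oxidase as a list. Whether these transketolases and the kinase take formaldehyde into sugar phosphates, as enzymes of their families do in methylotrophic yeasts, was not tested. Both transketolases were higher on day 9 wood (DICSQDRAFT_99670 by 1.18 ± 0.07 and DICSQDRAFT_131851 by 1.23 ± 0.06), and the dihydroxyacetone kinase DICSQDRAFT_133811 was lower (-0.79 ± 0.06). Of 14 peroxisome assembly genes, 5 were higher and 8 lower on wood on day 9 (median -0.38), a split that became 6 and 5 with library size alone. Over the 93 genes of the 9 lists, without DICSQDRAFT_181599, 42 were higher and 33 lower on wood on day 9. That is 75 of 93, beside 71.6% of all genes (37.4% higher and 34.1% lower), and nothing particular to these lists is read from it.

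Within each kind of material fewer of the 93 genes were called by edgeR. Between spruce and aspen 34 were called on day 9 and 25 on day 16, where 21.4% and 23.5% of all genes were. Between wheat bran and cotton seed hulls 32 were called on each day, where 33.8% and 31.4% of all genes were. These counts rest on few libraries. The first became 10 with only the compared groups in the fit, and the second became 15 without replicate 1 of spruce or replicate 2 of aspen on day 16. The bran and hull counts became 20 without bran replicate 2 on day 9, and 21 or 19 without replicate 2 of bran or of hulls on day 16.

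The genes whose pattern was most like that of DICSQDRAFT_181599 were found by Pearson r of log2(RPKM + 1) over the 16 libraries, among 7086 genes with a mean RPKM of at least 10. The libraries fall into 4 low and 12 high ones, so r mostly measures how well a gene follows that split. The nearest was DICSQDRAFT_156795, a PSP1-domain protein (r = 0.990), at 37.7 to 82.8 RPKM in the day 9 wood libraries and 266 to 376 RPKM in the others. Next came the transporter of the major facilitator superfamily DICSQDRAFT_174836 (r = 0.986), the hypothetical protein DICSQDRAFT_107867 (r = 0.986) and a methylmalonate-semialdehyde dehydrogenase, DICSQDRAFT_76415 (r = 0.986), an enzyme of valine breakdown. The transporter DICSQDRAFT_160663 (r = 0.983) and DICSQDRAFT_151801 (r = 0.980), a 3-hydroxyisobutyrate dehydrogenase, which also acts in valine breakdown, completed the first 6.

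This likeness was a common one. An r of 0.9 or more was reached by 179 of the 7086 genes and -0.9 or less by 305, and the median r was -0.31. The likeness by rank was weaker: Spearman's rho for the first 6 lay between 0.485 and 0.812, and 0 of them were among the first 6 by rho. DICSQDRAFT_149587, the alcohol oxidase-like gene, was in position 76 with r = 0.94. The least like were the hypothetical protein DICSQDRAFT_102791 (r = -0.989), DICSQDRAFT_65029, described as a concanavalin A-like lectin or glucanase (r = -0.986), and the manganese peroxidase DICSQDRAFT_59877 (r = -0.984).

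The genes on either side of DICSQDRAFT_181599 in the reference list were low in every group. DICSQDRAFT_137897, a hypothetical protein, had group means of 10.99 to 19.9 RPKM, and DICSQDRAFT_63701, which carries an RNA-dependent RNA polymerase domain, had group means of 8.53 to 12.6 RPKM. By edgeR both were lower on wood on day 9, but by little: the log2 fold change was -0.54 ± 0.13 SE for DICSQDRAFT_137897 (adjusted p = 0.00119) and -0.28 ± 0.10 for DICSQDRAFT_63701 (adjusted p = 0.0220). For DICSQDRAFT_137897 the difference on day 16 was larger (-1.01 ± 0.13, adjusted p = 5.40e-06), unlike that of DICSQDRAFT_181599.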

How the data were processed

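RNA-seq was measured in 16 libraries of mycelium. The read counts per gene model are the authors' deposited counts of uniquely placed reads, per the file headers. The RPKM values were also computed by the authors, and RPKM recomputed from reads, length and library total equalled the deposited values. Aligner, counter, genome build and strandedness: not given in the sources used here, so overlapping genes cannot be told apart. Genes absent from a library were taken as 0 reads. Names are the deposited descriptions, and 11371 of 11410 genes matched a RefSeq locus tag. Genes without one are written Dicsq1 and their protein number, and 18 of the 93 list members rest on a KEGG hit alone.

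Levels of DICSQDRAFT_181599 were described from RPKM, with ratios of group means. Wood is the mean of the log2 values of spruce and aspen, and non-woody material that of wheat bran and cotton seed hulls. Other genes were tested on counts with edgeR 4.0.16 in R 4.3.3. filterByExpr (minimum count 10, minimum total 15) kept 10584 genes and removed 826. Scaling was by TMM, and a robust quasi-likelihood model with 8 group means was fitted to all 16 libraries (8 residual degrees of freedom, common biological coefficient of variation 0.0982). Adjusted p values are Benjamini-Hochberg over all genes tested, two-sided, with a threshold of 0.05. The scripts were tested on simulated data. Alternatives were library size alone, DESeq2 1.42.0, no filter, only the compared groups, a replicate block and leaving out each library.

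The gene, the 9 lists and the tests were chosen with earlier results of these data known. Named genes are every alcohol oxidase, the 3 most abundant members of each list, the genes above DICSQDRAFT_181599 where it was in the first 5, the 6 most and 3 least like it, and its neighbours.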

Additional observations from a re-analysis of the deposited data

Results flagged for a closer look

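The day effect on DICSQDRAFT_181599 is the log2 ratio of day 16 to day 9 in RPKM. It was positive on spruce, aspen and cotton seed hulls, with every library on its own side. On wheat bran it was slightly negative (-0.07, or 1.05-fold lower), also without overlap. It was higher on spruce than on wheat bran by 2.88 and higher on aspen than on wheat bran by 4.90. Wheat bran minus cotton seed hulls was -0.18. These differences were not tested, because the gene was chosen for its levels.

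In 9 genes that were the most abundant of their list, the day effect on wood differed from that on non-woody material by the edgeR interaction term with Benjamini-Hochberg adjustment, by which 52.8% of all genes were called. The difference, wood minus non-woody, was 1.80 ± 0.24 SE for the alcohol oxidase-like DICSQDRAFT_149587 (adjusted p = 0.000107) and 2.17 ± 0.11 for the formate dehydrogenase DICSQDRAFT_51840 (adjusted p = 1.29e-10). It was 0.95 ± 0.12 for the catalase DICSQDRAFT_82531 (adjusted p = 3.20e-06) and 2.00 ± 0.23 for the glyoxal oxidase DICSQDRAFT_167685 (adjusted p = 5.28e-06). The largest of the 9 was 2.87 ± 0.13, for the pectinesterase hit Dicsq1-142507 (adjusted p = 3.73e-11).

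It was negative for the transketolase DICSQDRAFT_99670 (-1.50 ± 0.10, adjusted p = 2.45e-09), the dye-decolorizing peroxidase DICSQDRAFT_150405 (-1.42 ± 0.16, adjusted p = 1.92e-06) and the GMC oxidoreductase DICSQDRAFT_167452 (-1.53 ± 0.37, adjusted p = 0.00736). For the peroxisomal membrane gene DICSQDRAFT_95472 it was 0.28 ± 0.09 (adjusted p = 0.0113).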

How the results depend on the processing

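The log2 ratios of DICSQDRAFT_181599 kept their direction under every alternative run. Scaling moved 4 of them by more than the spread of the replicates: with TMM and with DESeq2 size factors, wood against non-woody material on day 16 was -0.71 and -0.72, wheat bran against cotton seed hulls was -0.28 and -0.32 on day 9 and -0.70 and -0.73 on day 16, and the day ratio on cotton seed hulls was 0.36 and 0.34. These shifts follow by construction from the scaling factors, and the cotton seed hull libraries had the lowest TMM factors (0.702 to 0.850). Why those factors were low was not tested. Library size alone moved the median log2 fold change of all genes to 0.31 for wood against non-woody material on day 9, 0.51 on day 16 and 0.48 for bran against hulls on day 16, from 0.03 or less.

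Over the 93 listed genes, the number called was 75 for wood against non-woody material on day 9 (71 to 78 with 1 library left out) and 54 on day 16 (50 to 53). For spruce against aspen it was 34 on day 9 (24 to 35, and 10 with only the compared groups) and 25 on day 16 (15 to 21). Wheat bran against cotton seed hulls gave 32 on day 9 (20 to 25, 51 with only the compared groups) and 32 on day 16 (19 to 24, 50 with only the compared groups, 56 with library size alone). The day effect gave 59 on spruce (49 to 58), 78 on aspen (68 to 73), 26 on wheat bran (17 to 19) and 28 on cotton seed hulls (16 to 19, 43 with only the compared groups).

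Signs turned for DICSQDRAFT_167452 on wood on day 9 (-0.16, not called; 0.11 with library size alone, -0.46 to 0.062 with 1 library left out) and, with library size alone, for DICSQDRAFT_99670 (-0.32 to 0.16) and DICSQDRAFT_95472 (-0.37 to 0.12) on wood on day 16. By Spearman's rho, 0 of the 6 most like genes stayed among the first 6. Replicate numbers did not pair the samples: deviations of same-numbered libraries correlated at -0.06 to 0.35 over 28 pairs of groups, with 1 over 0.1. The replicate block gave 75 and 57 calls for wood against non-woody material on day 9 and day 16.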
